A study of Mus musculus with 27 samples.

Results

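The 9 genes described here carry the signal of leukaemia inhibitory factor (LIF) in mouse embryonic stem cells: the receptor subunits Lifr and Il6st, the kinase Jak1, the transcription factor Stat3, the feedback inhibitor Socs3, and the transcription factor genes Tfcp2l1, Klf4, Klf5 and Tbx3. They were picked out by name, through the symbols that GENCODE gives their Ensembl identifiers. All 9 were found among the 37332 genes of the read-count table and the 53379 genes of the table of relative transcript abundance per length (TPM), and all 9 passed the filter on low counts.

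The study fractionated 3 kinds of cultured mouse cells into chromatin, nucleoplasm and cytoplasm and sequenced the polyadenylated RNA over 200 nt of each fraction as stranded 100 bp read pairs. The mCtx cells are primary cortical neurons kept for 5 days in culture on poly-L-lysine. The mNPC cells are a neural progenitor line established in the submitters' laboratory, grown in DMEM/F12 with B27 and with EGF and FGF at 10.0 ng/ml every day. The mESC cells are the embryonic stem cell line E14, grown on gelatin in medium with LIF, and the labels name LIF for this medium alone. Each of the 9 groups has 3 biological replicates, 27 libraries in all, and no group carries an engineered allele. The labels do not say whether the progenitor line is a single clone. Cell type and medium cannot be told apart in this design, since LIF, the growth factors and the substrate each go with 1 cell type.

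LIF binds the receptor chain LIFR, which pairs with gp130, the product of Il6st and the shared signalling chain of the interleukin-6 cytokine family. The kinase JAK1 is bound to these receptors and phosphorylates STAT3, which dimerises, enters the nucleus and binds DNA at palindromic TTCNNNGAA sites. SOCS3 is induced by STAT3 and blocks the receptor complex and its kinase. TFCP2L1, KLF4, KLF5 and TBX3 are transcription factors that help to keep mouse embryonic stem cells undifferentiated, and Tfcp2l1 and Klf4 are described there as targets of STAT3. In the nervous system the same receptors also serve ciliary neurotrophic factor and related cytokines, which act on neural progenitors, astrocytes and neurons.

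The promoter of Socs3 is shown because Socs3 is the textbook feedback target of STAT3 and its promoter alone among those read held the letters of the STAT site. RefSeq (GRCm38.p6) gave windows of 300 bases, 250 before to 50 after the gene start, for 7 of the 9 genes. The palindrome TTCNNNGAA, searched on both strands, was found in 1 of the 8 windows of these 7 genes and in 8.30% of all 32851 windows. Of all 27025 genes with a window, 2582 held it in at least 1. In Socs3 it begins 154 bases before the RefSeq start, and the capitals mark it. That start lies inside Socs3 as the count table bounds the gene, whose 5′ end there is 117970047, so the window is not upstream of every annotated start. The windows of Klf4 and Tfcp2l1 are set beside it for comparison and are in lower case throughout because they hold no match. A match describes letters and is not a bound site, and no match says only that these letters are not in the window. The Socs3 window is chr11:117969317-117969616 on the minus strand, the Klf4 window chr4:55532426-55532725 on the minus strand and the Tfcp2l1 window chr1:118627695-118627994 on the plus strand. GC content was 73.3% in the Socs3 window, 74.3% in the Klf4 window and 65.3% in the Tfcp2l1 window, against a median of 52.7% over all windows.
Socs3: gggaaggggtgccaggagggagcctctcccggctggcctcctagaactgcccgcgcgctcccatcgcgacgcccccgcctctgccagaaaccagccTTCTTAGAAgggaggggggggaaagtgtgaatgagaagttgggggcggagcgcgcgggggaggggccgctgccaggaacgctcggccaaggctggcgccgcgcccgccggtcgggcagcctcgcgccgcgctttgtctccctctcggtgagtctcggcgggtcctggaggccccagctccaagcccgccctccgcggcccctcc
Klf4: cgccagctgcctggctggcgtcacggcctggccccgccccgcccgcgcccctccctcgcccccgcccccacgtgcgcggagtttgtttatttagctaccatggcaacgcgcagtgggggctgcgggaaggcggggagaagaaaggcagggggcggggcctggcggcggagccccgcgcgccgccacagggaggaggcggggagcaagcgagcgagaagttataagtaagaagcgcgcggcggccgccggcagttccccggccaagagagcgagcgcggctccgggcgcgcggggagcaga
Tfcp2l1: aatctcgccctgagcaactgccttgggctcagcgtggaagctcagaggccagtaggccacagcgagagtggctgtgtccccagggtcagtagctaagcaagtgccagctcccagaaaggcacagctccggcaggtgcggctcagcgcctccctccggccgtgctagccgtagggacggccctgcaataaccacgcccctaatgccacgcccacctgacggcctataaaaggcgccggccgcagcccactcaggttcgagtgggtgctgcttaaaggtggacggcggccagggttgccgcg

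Library totals ran from 10622897 to 24537526 counts. Levels below are read counts over the TMM-scaled library size (CPM), which are relative to the RNA of a fraction and not to a cell. In these bulk samples fewer cells of a type and less RNA per cell cannot be told apart. The labelled cell types carried their markers, but the lists other than pluripotency did not separate them fully. Pluripotency markers reached 1 TPM for 8 of 8 in mESC and for at most 1 of 8 (Nanog) in any mCtx or mNPC fraction. Neuron markers did so for 8 of 8 in mCtx, 4 to 6 in mNPC and 4 to 5 in mESC. Their sums were 2249 to 3776 TPM in mCtx libraries, 109 to 523 in mNPC and 34.5 to 182 in mESC. Progenitor markers reached 1 TPM for 8 of 8 in mCtx as well as in mNPC and for 3 of 8 in mESC. Microglial markers did so for 3 to 4 of 8 in mCtx, for 2 of 8 in mESC chromatin and for none in the other groups. Fibroblast and mural markers did so for 6 of 8 in mCtx chromatin, 4 in nucleoplasm and 3 in cytoplasm, for none in mNPC and for 2 to 4 in mESC. Endothelial markers did so for 5 of 7 in mESC chromatin and nucleoplasm and for 1 of 7 in mESC cytoplasm. Of the nuclear lncRNAs tested, 5 of 5 were higher in chromatin than in cytoplasm in mCtx, 4 of 5 in mNPC and 5 of 5 in mESC. The mESC libraries numbered 1 stood apart from numbers 2 and 3 for some of the 9 genes, as described with Tbx3.

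A gene is called here when edgeR's quasi-likelihood test gives a Benjamini-Hochberg adjusted p under 0.05 and the fitted log2 fold change is at least 1 in size. Log2 fold changes come from a single fit of 27 libraries, 3 per group, and those of the main results carry their SE. The contrasts of mCtx and of mNPC with mESC share the mESC libraries, so their values are set side by side. In chromatin, 9 of the 9 genes were called in mCtx over mESC, 1 higher and 8 lower, where 29.3% of all 18226 genes tested were called higher and 32.3% lower. The nucleoplasm gave the same counts, 1 higher and 8 lower, against 28.9% and 34.1% of all genes. In cytoplasm none was higher and 6 were lower, against 35.7% and 32.2%. For mNPC over mESC, 2 were higher and 5 lower in chromatin (25.3% and 31.9% of all genes). In nucleoplasm 2 were higher and 5 lower (24.5% and 32.8%), and in cytoplasm 1 was higher and 5 lower (29.8% and 29.6%). The median log2 fold change of the 9 genes in mCtx over mESC was -3.33 in chromatin, -4.29 in nucleoplasm and -4.43 in cytoplasm, beside -0.08, -0.20 and 0.06 over all genes. In mNPC over mESC it was -2.49 in chromatin, -3.27 in nucleoplasm and -3.03 in cytoplasm, beside -0.14, -0.25 and -0.01.

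**Figure D1:**
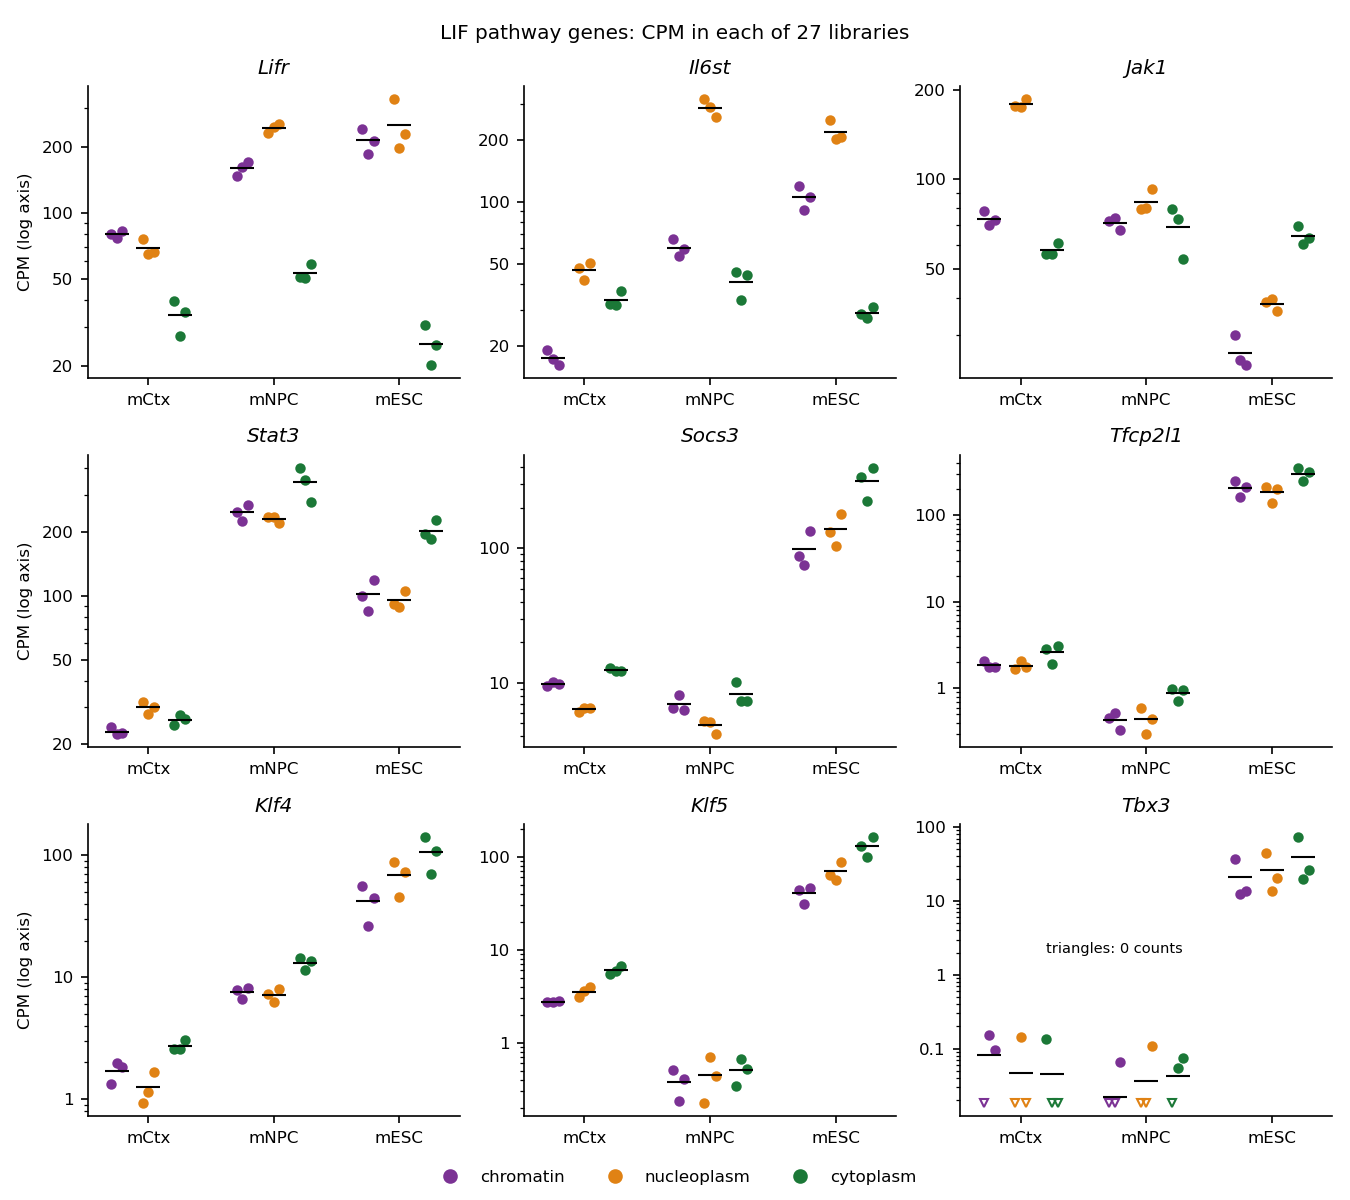
CPM on a log axis in each of the 27 libraries for the 9 genes, with the black line at the mean of 3 libraries, colours for the fraction and open triangles for libraries with 0 counts of Tbx3. Socs3, Tfcp2l1, Klf4, Klf5 and Tbx3 are highest in mESC in every fraction, while Stat3 is highest in mNPC and nucleoplasmic Jak1 in mCtx.

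Lifr RNA was low in mCtx chromatin and nucleoplasm and about equally low in mCtx and mESC cytoplasm. Lifr (ENSMUSG00000054263, chromosome 15: 7129559-7197489, plus strand) encodes the chain that binds LIF. In chromatin its CPM were 80.2, 76.7 and 82.8 in mCtx, 146, 161 and 170.4 in mNPC and 242, 186 and 213 in mESC. In nucleoplasm they were 76.2, 64.7 and 65.9 in mCtx, 229.9, 246 and 255 in mNPC and 329, 197 and 229 in mESC. In cytoplasm they were 39.8, 27.4 and 35.3 in mCtx, 51, 50.7 and 58.2 in mNPC and 30.7, 20.2 and 25 in mESC. In chromatin the 3 cell types did not overlap, with mCtx lowest and mESC highest. In nucleoplasm mCtx lay below both others, which overlapped, and in cytoplasm mNPC lay above both others, which overlapped. In mCtx over mESC the log2 fold change was -1.42 ± 0.17 (SE, adjusted p = 2.12e-08) in chromatin and -1.87 ± 0.17 (SE, adjusted p = 1.42e-10) in nucleoplasm. In cytoplasm it was 0.43 ± 0.17 (SE, adjusted p = 0.0226), which was not called. The mNPC values over mESC were -0.42 in chromatin and -0.05 in nucleoplasm, neither called. In cytoplasm mNPC was higher by 1.08 ± 0.17 (SE, adjusted p = 2.91e-06). That cytoplasmic call ended, at 0.86, without mESC cytoplasm library 2 and, at 0.98, without library 3. It also ended with RLE size factors, at 0.93, with DESeq2, at 0.92, and in a fit of only the libraries compared, at 0.97.

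Il6st, which encodes gp130 (ENSMUSG00000021756, chromosome 13: 112475008-112506860, plus strand), followed Lifr in chromatin. Its chromatin CPM were 19.2, 17.4 and 16.2 in mCtx, 66.2, 55 and 59.1 in mNPC and 119, 91 and 106 in mESC. In nucleoplasm the CPM were 47.7, 41.8 and 50.5 in mCtx, 315, 287 and 259 in mNPC and 250.4, 202 and 207 in mESC. In cytoplasm the CPM were 31.9, 31.8 and 36.9 in mCtx, 45.8, 33.4 and 44.3 in mNPC and 28.7, 27.5 and 30.9 in mESC. The chromatin groups did not overlap and rank as for Lifr, in nucleoplasm mNPC was above mESC and mESC far above mCtx, and in cytoplasm all libraries lay within 27.5 and 45.8 CPM with mESC below the others. In mCtx over mESC, Il6st fell by 2.58 on the log2 scale in chromatin (SE 0.15, adjusted p = 7.79e-15) and by 2.23 in nucleoplasm (SE 0.14, adjusted p = 7.84e-14). Its cytoplasmic difference was 0.21 ± 0.14 (SE, adjusted p = 0.164). No mNPC over mESC value of Il6st was called, at -0.81 in chromatin, 0.39 in nucleoplasm and 0.50 in cytoplasm. The genes share the receptor but not a fixed ratio: Lifr over Il6st in TPM was 2.48 ± 0.23 in mCtx chromatin, 1.98 ± 0.40 in mNPC chromatin and 1.29 ± 0.10 in mESC chromatin (SD, n = 3). In nucleoplasm the ratio was 0.840 ± 0.118 in mCtx, 0.655 ± 0.110 in mNPC and 0.818 ± 0.173 in mESC.

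Jak1, the receptor-bound kinase (ENSMUSG00000028530, chromosome 4: 101152367-101265282, minus strand), went the other way from its receptors in the nuclear fractions. Chromatin held 78.1, 70.0 and 72.7 in mCtx, 72.3, 74 and 67.3 in mNPC and 30.0, 24.7 and 23.7 in mESC CPM. Nucleoplasm held 176, 175 and 186 in mCtx, 79.2, 80.3 and 92.9 in mNPC and 38.6, 39.6 and 36.1 in mESC. Cytoplasm held 55.9, 56.2 and 60.9 in mCtx, 79.3, 73.2 and 54 in mNPC and 69.6, 60.7 and 63.6 in mESC. The mESC libraries were lowest in both nuclear fractions with no overlap, and mCtx nucleoplasm stood above every other group. In cytoplasm the 3 cell types overlapped. Jak1 rose in mCtx over mESC by 1.49 ± 0.13 (SE, adjusted p = 4.12e-11) in chromatin and by 2.23 ± 0.13 (SE, adjusted p = 1.25e-14) in nucleoplasm. It rose in mNPC over mESC by 1.45 ± 0.13 (SE, adjusted p = 9.83e-11) in chromatin and by 1.14 ± 0.13 (SE, adjusted p = 7.83e-09) in nucleoplasm, where the value was 0.78, under the minimum, when scaled by library totals or taken from TPM. The cytoplasmic values were -0.16 for mCtx and 0.09 for mNPC over mESC, neither called.

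Stat3 was richest in mNPC and poorest in mCtx in every fraction, with no overlap between cell types. It encodes the transcription factor that LIF activates (ENSMUSG00000004040, chromosome 11: 100885098-100939540, minus strand). In chromatin the CPM of Stat3 were 24.1, 22.4 and 22.5 in mCtx, 248, 227 and 269 in mNPC and 101, 85.5 and 119 in mESC. In nucleoplasm Stat3 had 31.7, 28 and 30.1 in mCtx, 236, 235 and 221 in mNPC and 92.3, 89.1 and 105 in mESC. In cytoplasm Stat3 had 24.6, 27.6 and 26.4 in mCtx, 400.4, 353 and 277 in mNPC and 195, 186 and 228 in mESC. Stat3 was lower in mCtx over mESC, with log2 fold changes of -2.15 in chromatin, -1.67 in nucleoplasm and -2.95 in cytoplasm (SE 0.14 to 0.15) and adjusted p = 2.24e-11 for the smallest of these. It rose in mNPC over mESC by 1.28 ± 0.14 (SE, adjusted p = 3.08e-09) in chromatin and 1.27 ± 0.14 (SE, adjusted p = 3.97e-09) in nucleoplasm. The nucleoplasmic call ended at 0.91 when scaled by library totals and at 0.73 on log2(TPM + 1). In cytoplasm the mNPC value was 0.76 ± 0.13 (SE, adjusted p = 1.32e-05), under the minimum fold. Between the neural cells, Stat3 was 10.8-fold lower in mCtx than in mNPC chromatin, 7.7-fold lower in nucleoplasm and 13.1-fold lower in cytoplasm. Markers of astrocytes and of the oligodendrocyte lineage were likewise highest in mNPC, while the order of mCtx and mESC depended on the measure and the fraction. Of the astrocyte markers 8 of 8 reached 1 TPM in mNPC, 6 to 7 of 8 in mCtx and 3 to 4 of 8 in mESC, with sums of 443 to 1437 TPM in mNPC libraries, 125 to 156 in mCtx and 22.3 to 322 in mESC. In nucleoplasm the astrocyte sum was 129 to 156 TPM in mCtx and 228 to 322 in mESC. In chromatin it was 134 to 143 in mCtx and 96.4 to 124 in mESC, and in cytoplasm 125 to 141 and 22.3 to 40.3. Of the oligodendrocyte lineage markers 6 of 6 did so in mNPC, 3 to 5 in mCtx and 1 to 3 in mESC, with sums of 535 to 1170 TPM in mNPC libraries, 43.7 to 119 in mCtx and 2.08 to 54.9 in mESC. The part of these cells in the Stat3 difference was not tested.

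Socs3, the feedback inhibitor of the receptor complex (ENSMUSG00000053113, chromosome 11: 117966079-117970047, minus strand), was abundant in mESC alone. In chromatin it had 9.47, 10.2 and 9.8 in mCtx, 6.48, 8.06 and 6.23 in mNPC and 87, 75.4 and 134 in mESC CPM. In nucleoplasm it had 6.03, 6.46 and 6.51 in mCtx, 5.2, 5.14 and 4.16 in mNPC and 132, 103 and 178 in mESC CPM. In cytoplasm it had 12.8, 12.2 and 12.2 in mCtx, 10.1, 7.32 and 7.3 in mNPC and 337, 223 and 392 in mESC CPM. Every mESC library lay above every library of the other cell types, and in each fraction the mCtx libraries lay above the mNPC libraries. In mCtx over mESC, Socs3 was 10.0-fold lower in chromatin, 21.7-fold in nucleoplasm and 25.6-fold in cytoplasm. In mNPC over mESC it was 14.2-fold lower in chromatin, 28.3-fold in nucleoplasm and 38.2-fold in cytoplasm. The least certain of these 6, mCtx chromatin, had a log2 fold change of -3.33 ± 0.22 (SE, adjusted p = 3.28e-13). In mCtx over mNPC the differences were 0.50 in chromatin, 0.38 in nucleoplasm and 0.58 in cytoplasm, none called. Stat3 and Socs3 ran in different orders over the cell types, and their ratio ran in the order of Socs3 with mESC highest and mNPC lowest. Socs3 over Stat3 in cytoplasmic TPM was 0.933 ± 0.270 in mCtx, 0.0377 ± 0.0039 in mNPC and 2.67 ± 0.39 in mESC (SD, n = 3). The same ratio in chromatin was 0.519 ± 0.043 in mCtx, 0.0264 ± 0.0056 in mNPC and 1.11 ± 0.15 in mESC. In nucleoplasm it was 0.364 ± 0.079 in mCtx, 0.0331 ± 0.0057 in mNPC and 2.11 ± 0.45 in mESC, so the libraries of the 3 cell types did not overlap in any fraction.

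**Figure D2:**
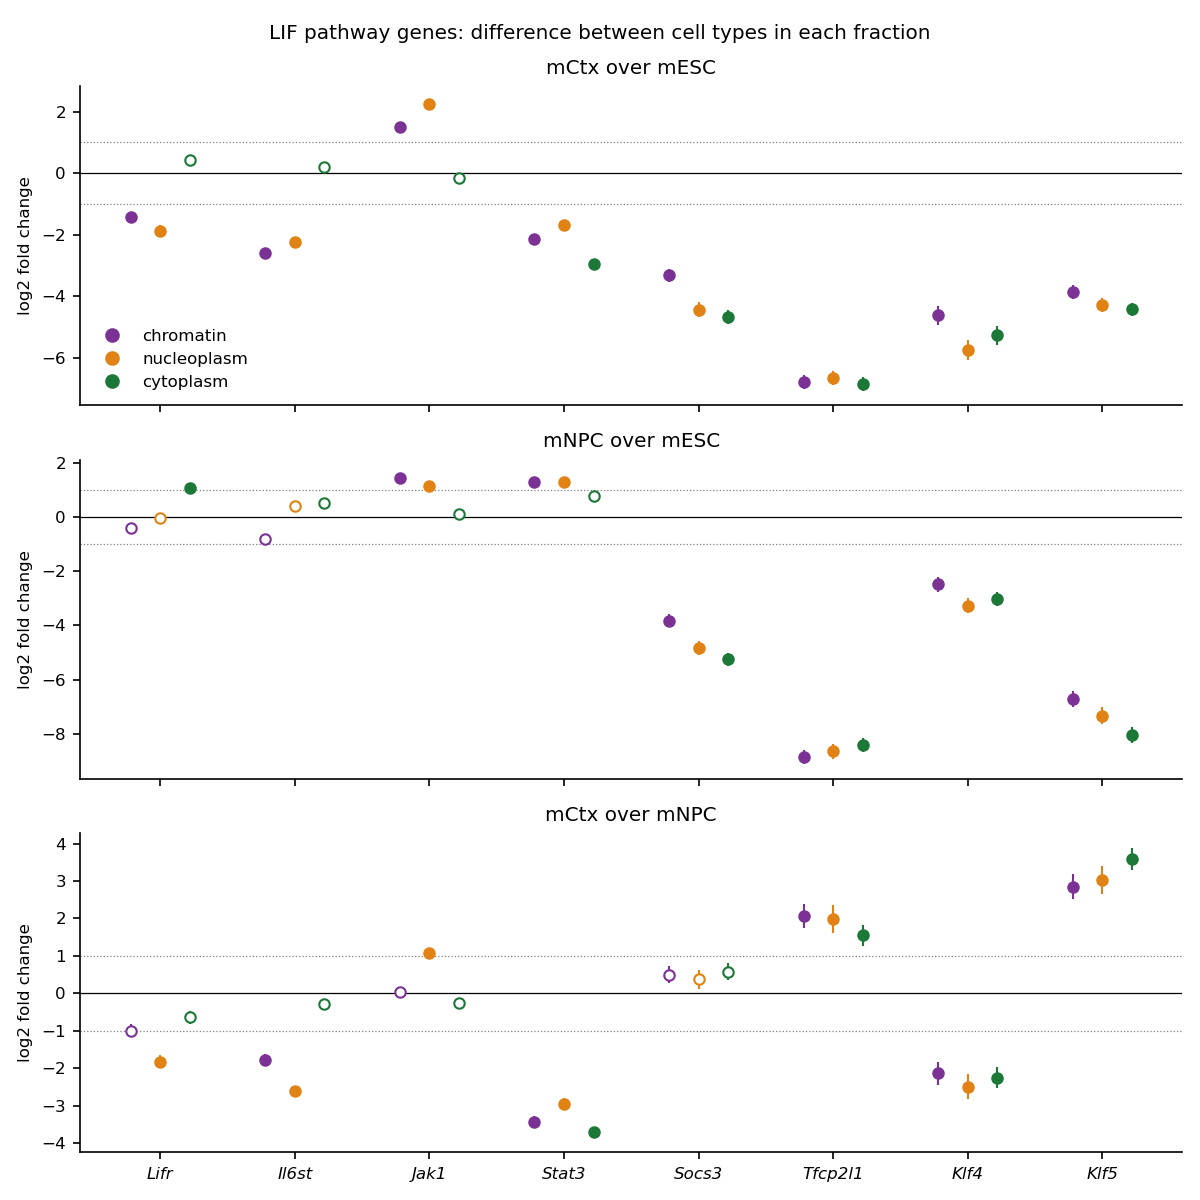
Fitted log2 fold change with its SE for 8 genes between cell types in each fraction, filled where called and open where not, with dotted lines at the minimum of 1; Tbx3 is left out because mCtx and mNPC hold 1 to 5 counts of it per group. Socs3, Tfcp2l1, Klf4 and Klf5 lie far below 0 in both comparisons with mESC, and Klf4 and Klf5 lie on opposite sides of 0 in mCtx over mNPC.

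The 4 transcription factor genes downstream were lower in both neural cell types in every fraction, but they did not rank mCtx and mNPC alike. Tfcp2l1 (ENSMUSG00000026380, chromosome 1: 118627945-118685167, plus strand) had 2.87, 1.91 and 3.1 in mCtx, 0.99, 0.716 and 0.969 in mNPC and 348, 248 and 313 in mESC CPM in cytoplasm. In chromatin Tfcp2l1 had 2.05, 1.79 and 1.78 in mCtx, 0.452, 0.518 and 0.335 in mNPC and 251, 161 and 211 in mESC CPM. In nucleoplasm Tfcp2l1 had 1.66, 2.06 and 1.78 in mCtx, 0.594, 0.297 and 0.438 in mNPC and 212, 140.0 and 199.6 in mESC CPM. The mCtx libraries lay above the mNPC libraries in each fraction, and both lay far below mESC. In mCtx over mESC Tfcp2l1 was 111-fold lower in chromatin, 100.3-fold in nucleoplasm and 115-fold in cytoplasm. In mNPC over mESC it was 460.1-fold lower in chromatin, 396-fold in nucleoplasm and 337-fold in cytoplasm. These folds rest on 25, 15 and 49 counts over the 3 mNPC libraries of each fraction, and TPM gave smaller ones. Mean TPM was 0.34 in mNPC against 47.7 in mESC in chromatin, 0.113 against 24.6 in nucleoplasm and 0.233 against 38.6 in cytoplasm. In mCtx over mNPC, Tfcp2l1 was higher by 2.06 ± 0.32 (SE, adjusted p = 2.84e-06) in chromatin, 1.98 ± 0.38 (SE, adjusted p = 4.29e-05) in nucleoplasm and 1.55 ± 0.27 (SE, adjusted p = 1.68e-05) in cytoplasm. These 3 calls ended on log2(TPM + 1), where the differences were 0.54, 0.26 and 0.24 for levels under 1 TPM. An snRNA gene, Gm23497, lies inside Tfcp2l1 on the same strand and holds 1692 counts beside the 38864 of Tfcp2l1, both over all 27 libraries. Gm23497 held up to 242 counts in a library. The 3 mCtx libraries together held 112 counts of Tfcp2l1 in chromatin, 89 in nucleoplasm and 148 in cytoplasm. The part of Gm23497 in the mCtx and mNPC values of Tfcp2l1 was not tested.

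Klf4 (ENSMUSG00000003032, chromosome 4: 55527143-55532466, minus strand) and Klf5 (ENSMUSG00000005148, chromosome 14: 99298691-99313405, plus strand) encode related zinc finger factors. Klf4 had 2.59, 2.57 and 3.06 in mCtx, 14.3, 11.5 and 13.5 in mNPC and 141, 70.6 and 109 in mESC CPM in cytoplasm. It had 0.928, 1.14 and 1.68 in mCtx, 7.36, 6.23 and 7.98 in mNPC and 88.4, 45.8 and 73.7 in mESC in nucleoplasm, and 1.33, 1.99 and 1.83 in mCtx, 7.93, 6.6 and 8.18 in mNPC and 55.8, 26.4 and 45 in mESC in chromatin. For Klf4, then, mNPC stood between mESC and mCtx with no overlap in any fraction. Klf5 had 5.53, 5.84 and 6.7 in mCtx, 0.344, 0.661 and 0.522 in mNPC and 130.3, 99 and 162 in mESC CPM in cytoplasm. It had 3.12, 3.55 and 3.97 in mCtx, 0.223, 0.692 and 0.438 in mNPC and 64.5, 56.3 and 89 in mESC in nucleoplasm, and 2.77, 2.71 and 2.79 in mCtx, 0.502, 0.236 and 0.402 in mNPC and 43.9, 31.2 and 46.3 in mESC in chromatin. For Klf5, mCtx stood between mESC and mNPC, again with no overlap. Klf4 was called lower throughout, with log2 fold changes in mCtx over mESC of -4.62 in chromatin, -5.76 in nucleoplasm and -5.28 in cytoplasm, and in mNPC over mESC of -2.49 in chromatin, -3.27 in nucleoplasm and -3.03 in cytoplasm (SE 0.26 to 0.33 over these 6). Klf5 was called lower too, with -3.87 in chromatin, -4.29 in nucleoplasm and -4.43 in cytoplasm in mCtx over mESC, and with -6.73 in chromatin, -7.32 in nucleoplasm and -8.02 in cytoplasm in mNPC over mESC (SE 0.22 to 0.31 over these 6). In mCtx over mNPC the pair parted: in cytoplasm Klf4 was lower, at -2.25 ± 0.29 (SE, adjusted p = 1.19e-07), and Klf5 higher, at 3.59 ± 0.30 (SE, adjusted p = 5.11e-11). Klf4 over Klf5 in cytoplasmic TPM was 0.307 ± 0.042 in mCtx, 15.6 ± 7.7 in mNPC and 0.561 ± 0.138 in mESC (SD, n = 3). In chromatin the ratio was 0.515 ± 0.092 in mCtx, 15.8 ± 4.7 in mNPC and 0.915 ± 0.246 in mESC.

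Tbx3, a T-box factor gene (ENSMUSG00000018604, chromosome 5: 119670669-119684724, plus strand), was nearly restricted to mESC. Its 3 mCtx libraries held 0, 3 and 2 counts in chromatin, 0, 2 and 0 in nucleoplasm and 2, 0 and 0 in cytoplasm. The mNPC libraries held 0, 0 and 1 counts in chromatin, 0, 0 and 1 in nucleoplasm and 0, 1 and 1 in cytoplasm. The mESC libraries held 751, 301 and 305 counts in chromatin, 822, 253 and 365 in nucleoplasm and 987, 351 and 452 in cytoplasm. Tbx3 was called lower in mCtx and in mNPC over mESC in all 3 fractions, but with so few counts the size is given as a ratio of counts with an exact 95% interval that covers counting error only. In chromatin mESC stood 241 times above mCtx (interval 103 to 744) and 1128 times above mNPC (202 to 44601). In nucleoplasm the ratios were 639 over mCtx (176 to 5278) and 856 over mNPC (153 to 33824), and in cytoplasm 1042 over mCtx (288 to 8615) and 1012 over mNPC (280 to 8365). No fold is given between mCtx and mNPC. The antisense gene Tbx3os1 overlaps Tbx3 by 697 bp and holds 108 counts beside 4600, and the strand setting of the counting is not given in the sources used here.

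Tbx3 also varied most among mESC cultures. Its CPM were 36.6, 12.3 and 13.6 in mESC chromatin, 44.8, 13.5 and 20.3 in nucleoplasm and 72.7, 19.8 and 26.3 in cytoplasm, in the order of the libraries numbered 1, 2 and 3. Library 1 stood 2.82 times above the mean of the other two in chromatin, 2.65 times in nucleoplasm and 3.15 times in cytoplasm. Of all genes with at least 10 CPM, 1.66% were more than 2 times higher in library 1 in chromatin, 2.57% in nucleoplasm and 1.32% in cytoplasm, and the median ratio was 0.880, 0.925 and 0.860. Klf4 was at 1.56, 1.48 and 1.56 times in chromatin, nucleoplasm and cytoplasm. Lifr was 1.21, 1.54 and 1.36 times higher there and Tfcp2l1 1.35, 1.25 and 1.24 times, while the other 5 genes lay between 0.832 and 1.24 times. Without library 1 of each fraction, mESC stood 155 times above mCtx and 725 times above mNPC in chromatin, 411 and 551 times in nucleoplasm, and 650 and 631 times in cytoplasm. Without these 3 libraries the count of the 9 genes called stayed at 9 in chromatin and nucleoplasm and 6 in cytoplasm for mCtx over mESC, and at 7, 7 and 6 for mNPC over mESC.

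**Figure D3:**
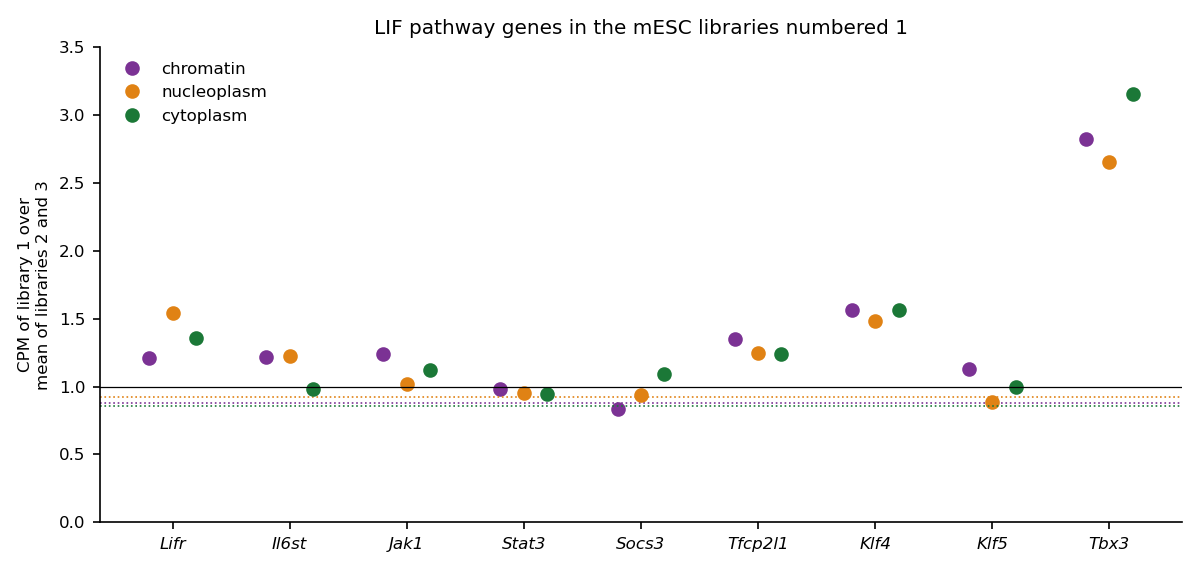
CPM of mESC library 1 over the mean of mESC libraries 2 and 3 for the 9 genes, with colours for the fraction, a solid line at 1 and dotted lines at the median of all genes with at least 10 CPM. Tbx3 lies at 2.65 to 3.15 in all 3 fractions and Klf4 at 1.48 to 1.56.

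In mCtx over mNPC chromatin, 2 of the 9 genes passed as higher and 3 as lower, where 23.5% and 21.4% of all genes were. Nucleoplasm gave 3 higher and 4 lower (24.6% and 22.1% of all genes), and cytoplasm 2 higher and 2 lower (24.4% and 20%). Stat3 and Klf4 were lower, and Tfcp2l1 and Klf5 higher, in all 3 fractions. Il6st was lower in chromatin, at -1.77 ± 0.14 (SE, adjusted p = 2.06e-11), and in nucleoplasm, at -2.62 ± 0.14 (SE, adjusted p = 6.99e-15). Lifr was lower in nucleoplasm, at -1.82 ± 0.17 (SE, adjusted p = 3.67e-10); in chromatin its value of -0.996 ± 0.17 (SE, adjusted p = 8.14e-06) fell just short of the minimum fold. Jak1 was higher in nucleoplasm, at 1.09 ± 0.13 (SE, adjusted p = 1.79e-08), a call that ended when any 1 of the 6 nucleoplasm libraries compared was left out, at 0.89 to 0.98. No median of the 9 genes is given here because in nucleoplasm it falls on Tbx3, with 1 to 2 counts per group.

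By counts, the receptor RNAs lay toward the nuclear fractions in mESC, and the RNAs of Socs3, Klf4 and Klf5 lay toward the cytoplasm relative to chromatin. In chromatin over cytoplasm, 1 of the 9 genes was called higher and 1 lower in mCtx, against 26.2% and 24.4% of all genes. In mNPC 1 was higher and none lower (27.5% and 21.3%), and in mESC 2 were higher and 4 lower (34.4% and 21.6%). In nucleoplasm over cytoplasm, 2 were higher and 1 lower in mCtx (11.7% and 9.57%), 2 higher and none lower in mNPC (16.4% and 8.56%), and 2 higher and 2 lower in mESC (27.5% and 8.95%). The median log2 fold change of the 9 genes in chromatin over cytoplasm was -0.34 in mCtx, -0.40 in mNPC and -0.995 in mESC, beside medians over all genes of 0 in mCtx, 0.12 in mNPC and 0.37 in mESC. The mESC median is the value of Stat3, and on log2(TPM + 1) the medians of the 9 genes turned positive, at 0.42 in mCtx, 0.81 in mNPC and 0.10 in mESC, so no common direction is given for them. Scaling by library totals moved the medians over all genes in chromatin over cytoplasm to 0.24 in mCtx, 0.43 in mNPC and 0.88 in mESC. In nucleoplasm over cytoplasm that scaling moved them to -0.31 in mNPC, beside -0.04, and to 0.26 in mESC, beside 0.04. Over all genes it turned the calls in chromatin over cytoplasm of mESC to 8100 higher and 2485 lower, beside 6265 and 3933, and those of mNPC to 6124 and 3085, beside 5018 and 3886. The calls in nucleoplasm over cytoplasm became 5540 higher and 562 lower in mESC, beside 5021 and 1631, and 2372 and 3248 in mNPC, beside 2992 and 1561.

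**Figure D4:**
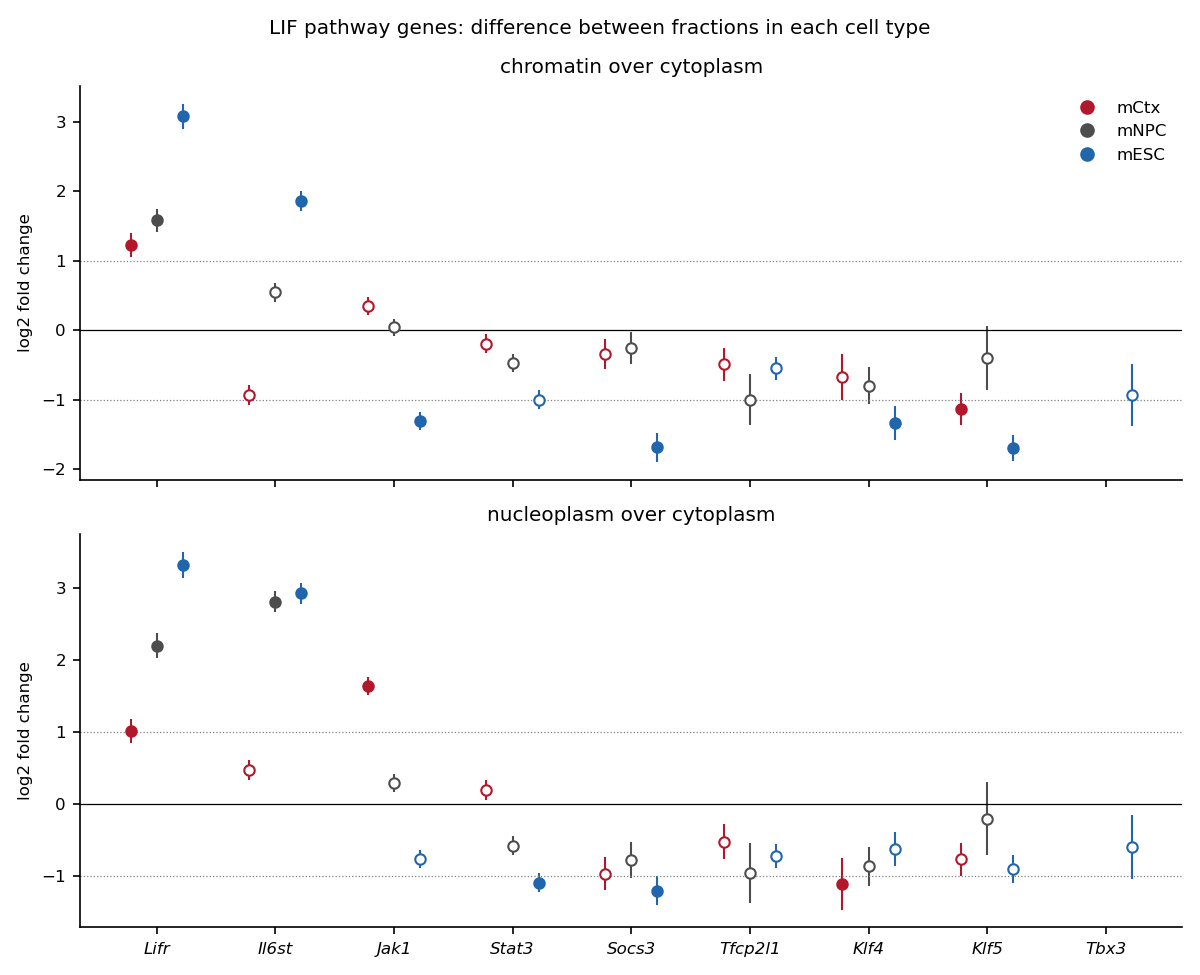
Fitted log2 fold change with its SE for the 9 genes in chromatin over cytoplasm and nucleoplasm over cytoplasm, by cell type, filled where called and open where not, with dotted lines at the minimum of 1; Tbx3 is drawn for mESC only. Lifr and Il6st lie at 1.86 to 3.31 in mESC, while Jak1 in nucleoplasm over cytoplasm lies at 1.63 in mCtx and at -0.76 in mESC.

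Lifr was higher in chromatin than in cytoplasm in each cell type, by 1.23 ± 0.17 (SE, adjusted p = 3.90e-07) in mCtx, 1.58 ± 0.17 (SE, adjusted p = 4.84e-09) in mNPC and 3.08 ± 0.18 (SE, adjusted p = 5.97e-14) in mESC. Lifr in nucleoplasm over cytoplasm was higher by 1.01 in mCtx, 2.19 in mNPC and 3.31 in mESC (SE 0.17 to 0.18). The mCtx value ended as a call without mCtx nucleoplasm library 1, at 0.90, and without cytoplasm library 2, at 0.84, as well as with library totals, at 0.93, a filter of 1 CPM in 3 libraries, at 0.97, or log2(TPM + 1), at 0.88. Il6st in nucleoplasm over cytoplasm was higher by 2.80 ± 0.14 (SE, adjusted p = 1.69e-14) in mNPC and 2.92 ± 0.15 (SE, adjusted p = 3.85e-15) in mESC, beside 0.48 in mCtx, which was not called. In chromatin over cytoplasm Il6st was -0.93 ± 0.14 (SE, adjusted p = 1.62e-06) in mCtx and 0.55 in mNPC, neither called, and 1.86 ± 0.14 (SE, adjusted p = 7.68e-12) in mESC. The mCtx value passed the minimum, at -1.03, without mCtx cytoplasm library 2. Among the other receptors of the cytokine family, 4 of 5 were called higher in nucleoplasm over cytoplasm in mESC, 4 of 5 in mNPC and 2 of 5 in mCtx, with Osmr and Il6ra among them in each cell type.

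RNAs of the endoplasmic reticulum (ER) list, 10 genes of ER chaperones and the translocation channel, are set beside the receptors. In nucleoplasm over cytoplasm 5 of 10 were called higher and 1 lower in mCtx (median log2 fold change 0.99), 9 of 10 higher in mNPC (median 2.30) and 9 of 10 higher in mESC (median 3.64). In chromatin over cytoplasm 1 was higher and 2 lower in mCtx (median -0.63), 1 higher and 4 lower in mNPC (median -0.73), and 6 higher and 1 lower in mESC (median 1.12). In that comparison Lifr was called higher in each cell type and Il6st in mESC alone. The summed TPM of the list was 2947 to 3435 in nucleoplasm and 1622 to 1711 in cytoplasm of mCtx, 4440 to 5037 in nucleoplasm and 1262 to 1498 in cytoplasm of mNPC, and 4849 to 6641 in nucleoplasm and 632 to 881 in cytoplasm of mESC. In cytoplasm alone, 8 of 10 were higher in mCtx over mESC (median 1.72) and 7 of 10 in mNPC over mESC (median 1.34). The mitochondrial share of counts was also higher in nucleoplasm than in cytoplasm, at 6.41% to 6.70% against 2.44% to 2.64% in mCtx, 8.81% to 11.7% against 0.317% to 0.504% in mNPC and 3.84% to 4.43% against 0.0321% to 0.0435% in mESC. The part of ER-bound RNA, or of how the fractions were split, in the receptor values was not tested.

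Jak1 in nucleoplasm over cytoplasm was 1.63 ± 0.13 (SE, adjusted p = 2.03e-10) in mCtx, 0.29 ± 0.12 (SE, adjusted p = 0.0597) in mNPC and -0.76 ± 0.13 (SE, adjusted p = 9.94e-06) in mESC, of which the mCtx value was called. Whether these differ between cell types was not tested for nucleoplasm. In chromatin over cytoplasm it was -1.31 ± 0.13 (SE, adjusted p = 8.47e-10) in mESC, called lower, beside 0.35 in mCtx and 0.05 in mNPC. The mESC call ended with library totals, at -0.79. Stat3 in mESC was -0.995 in chromatin over cytoplasm, just short of the minimum, and with culture as a block it was -1.002 and called. In nucleoplasm over cytoplasm Stat3 was -1.09 ± 0.14 (SE, adjusted p = 1.36e-07) in mESC, called lower, a call that ended with library totals, at -0.87, in a fit of only the libraries compared, at -0.97, and on log2(TPM + 1), at -0.70. Socs3 was lower in mESC in chromatin over cytoplasm, at -1.68 ± 0.20 (SE, adjusted p = 4.20e-08), and in nucleoplasm over cytoplasm, at -1.20 ± 0.20 (SE, adjusted p = 1.19e-05), of which the second call ended with library totals, at -0.995. Klf4 and Klf5 were lower in mESC chromatin over cytoplasm, at -1.33 ± 0.24 (SE, adjusted p = 2.10e-05) and -1.69 ± 0.19 (SE, adjusted p = 1.34e-08). Library totals ended the Klf4 call, at -0.83. In mCtx, Klf5 was lower in chromatin over cytoplasm, at -1.13 ± 0.23 (SE, adjusted p = 9.38e-05), and Klf4 in nucleoplasm over cytoplasm, at -1.10 ± 0.36 (SE, adjusted p = 0.0128). The first call ended with library totals, at -0.86, and on log2(TPM + 1), at -0.32, and the second without mCtx nucleoplasm library 1, at -0.97, and on log2(TPM + 1), at -0.54. Tfcp2l1 was under the minimum in all 6 fraction contrasts, at -0.99 to -0.49; the mNPC chromatin value passed it without mNPC chromatin library 1 or 2 or cytoplasm library 2, at -1.01 to -1.14. Tbx3 in mESC was -0.93 ± 0.44 (SE, adjusted p = 0.0621) in chromatin over cytoplasm and -0.59 ± 0.44 (SE, adjusted p = 0.247) in nucleoplasm over cytoplasm. The first was called without mESC chromatin library 1 (-1.61), cytoplasm library 2 (-1.30) or cytoplasm library 3 (-1.22), and the second without nucleoplasm library 1 (-1.35). Each of these leaves out a library of 1 fraction and keeps its same-numbered partners; without all 3 mESC libraries numbered 1 the values were -0.83 and -0.49, neither called.

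By counts, the test of the difference itself found a lower chromatin-to-cytoplasm log2 change of the receptors in the neural cells than in mESC. For Il6st in mCtx the change had the other sign, at -0.93, not called, beside 1.86 in mESC. On log2(TPM + 1) the mNPC minus mESC calls ended, at -0.996 for Lifr and -0.966 for Il6st. For mCtx minus mESC, 2 of the 9 genes were called higher and 2 lower, against 15.7% and 24.9% of all genes. For mNPC minus mESC 3 were higher and 2 lower (10.3% and 17.7%), and for mCtx minus mNPC none was higher and 1 lower (7.68% and 11.4%). The median of the 9 genes was 0.66 for mCtx minus mESC and 0.53 for mNPC minus mESC, beside -0.30 and -0.19 over all genes. Library totals moved these medians over all genes to -0.56 for mCtx minus mESC and -0.40 for mNPC minus mESC, and the calls of all genes for mNPC minus mESC to 1295 higher and 3930 lower, beside 1878 and 3226. For Lifr the difference was -1.85 ± 0.24 (SE, adjusted p = 3.21e-07) in mCtx minus mESC and -1.50 ± 0.24 (SE, adjusted p = 1.24e-05) in mNPC minus mESC. For Il6st it was -2.79 ± 0.20 (SE, adjusted p = 1.52e-11) and -1.31 ± 0.19 (SE, adjusted p = 4.95e-06), and Il6st also differed in mCtx minus mNPC, by -1.48 ± 0.20 (SE, adjusted p = 2.26e-06). Jak1 and Socs3 went the other way. Jak1 was at 1.66 ± 0.18 (SE, adjusted p = 1.55e-08) in mCtx minus mESC and 1.35 ± 0.18 (SE, adjusted p = 8.38e-07) in mNPC minus mESC. Socs3 was at 1.35 ± 0.30 (SE, adjusted p = 0.000387) in mCtx minus mESC and 1.43 ± 0.30 (SE, adjusted p = 0.000423) in mNPC minus mESC. Klf5 in mNPC minus mESC passed narrowly, at 1.29 ± 0.51 (SE, adjusted p = 0.045), on 0.236 to 0.661 CPM in mNPC chromatin and cytoplasm. That call ended with library totals, no filter, a filter of 1 CPM in 3 libraries, only the libraries compared, no mitochondrial genes or without the 3 mESC libraries numbered 1, at 1.08 to 1.24. It also ended without any 1 of mNPC chromatin libraries 1 and 3, mNPC cytoplasm libraries 1 and 3, mESC chromatin library 2 and mESC cytoplasm libraries 1 and 3, at 1.01 to 1.33.

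Per length, in TPM, the 9 genes had different ranks in each cell type. In mCtx cytoplasm Jak1 led, at 15.2 ± 1.71 TPM, followed by Stat3, at 8.54 ± 1.65, Socs3, at 7.67 ± 0.907, and Il6st, at 7.66 ± 0.835 (SD, n = 3). In mNPC cytoplasm Stat3 led, at 112 ± 24.5 TPM, ahead of Jak1, at 19.1 ± 3.62. In mESC cytoplasm Socs3 led, at 163 ± 43.3 TPM, ahead of Klf5, at 93.1 ± 20.3, Stat3, at 60.2 ± 8.07, and Klf4, at 53.4 ± 22.4. Lifr and Il6st were at 4.08 ± 1.16 and 6.81 ± 0.573 TPM in mESC cytoplasm, against 57.3 ± 11.9 and 44.2 ± 7.66 TPM in mESC chromatin.

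The fraction ratios differed between the tables, and several turned from below 1 by CPM to above 1 by TPM. The counts cover each gene between the bounds used for counting, introns included, while TPM is assigned to transcripts. For Il6st these bounds, 112475008 to 112506860, lie inside the GENCODE gene, 112464070 to 112510086. For Lifr they begin at 7129559, where GENCODE begins at 7090614. For Klf5 they end at 99313405, where GENCODE ends at 99315036. The part of introns and of these bounds in the difference between CPM and TPM was not tested. The upward move was not particular to the 9 genes. On log2(TPM + 0.1), over 41437 genes, the median in chromatin over cytoplasm was 0.51 in mCtx, 0.61 in mNPC and 0.84 in mESC. By counts, over 18226 genes, it was lower, at 0.12 in mNPC, 0.37 in mESC and near 0 in mCtx. Stat3 chromatin over cytoplasm was 0.878 in mCtx, 0.723 in mNPC and 0.502 in mESC by mean CPM, and 2.55, 2.77 and 1.70 by mean TPM. On log2(TPM + 1) its difference was 1.27 in mCtx and 1.48 in mNPC, called higher in both, where the counts gave -0.19 and -0.47, not called. Tfcp2l1 turned in all 3 cell types as well, at 0.712 in mCtx, 0.488 in mNPC and 0.685 in mESC by CPM and 2.06, 1.46 and 1.24 by TPM. Socs3 and Klf4 turned in mCtx and mNPC, Klf5 in mNPC, Il6st in mCtx and Tbx3 in mESC. No direction is therefore given for these genes between chromatin and cytoplasm in those cell types. The TPM ratio lay above the CPM ratio in every cell type for each of the 8 genes other than Tbx3. For Lifr the ratio was 2.34 in mCtx, 2.99 in mNPC and 8.43 in mESC by CPM and 4.29, 6.33 and 14.0 by TPM, so the rank of the cell types was kept. For Socs3 it was 0.792, 0.839 and 0.311 by CPM and 1.47, 1.92 and 0.690 by TPM. On log2(TPM + 1) the calls of Jak1, Socs3, Klf4 and Klf5 in mESC chromatin over cytoplasm ended, at -0.27, -0.52, -0.30 and -0.99. The tables lay closer in nucleoplasm over cytoplasm: Il6st was 1.39 in mCtx, 6.97 in mNPC and 7.57 in mESC by CPM and 1.42, 5.66 and 7.64 by TPM.

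**Figure D5:**
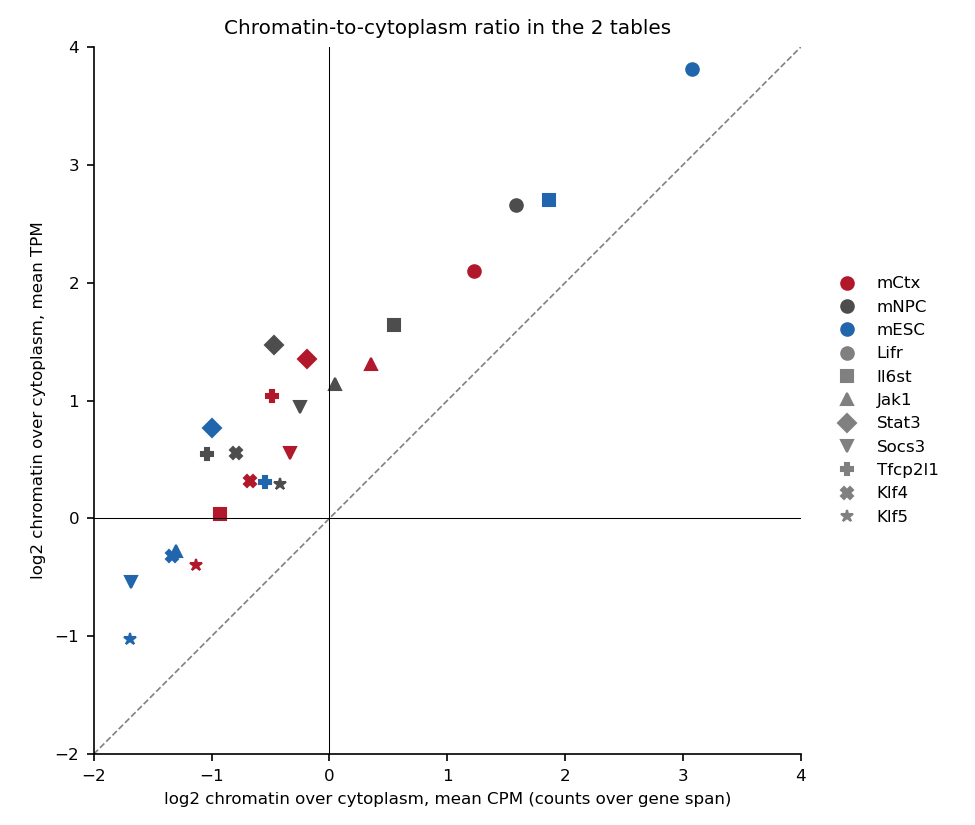
Log2 of the chromatin-to-cytoplasm ratio of mean CPM (horizontal) and of mean TPM (vertical) for 8 genes without Tbx3, with colours for the cell type, symbols for the gene and a dashed line where the 2 are equal. All points lie above the dashed line, and the Stat3 and Tfcp2l1 points lie left of 0 by CPM and above 0 by TPM.

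The other genes of the pathway were listed by role, and in cytoplasm their calls over mESC were counted. The shares of all genes to read them against were 35.7% higher and 32.2% lower in mCtx, and 29.8% higher and 29.6% lower in mNPC. Of 6 ligand genes tested, 1 was higher and 2 lower in mCtx, and 1 higher and 4 lower in mNPC. The gene of LIF itself was called lower in both. Ctf1, cardiotrophin 1, was at -0.67 in mCtx, not called, and -1.44 in mNPC, and Cntf, ciliary neurotrophic factor, at 0.67 in mCtx, not called, and 1.80 in mNPC. Osm, oncostatin M, had 0.0300 TPM in mCtx, was listed at 0 in mNPC and had 1.32 TPM in mESC. Of 5 other receptor genes, 2 were higher and none lower in mCtx, and 2 higher and 1 lower in mNPC. Cntfr, the receptor of ciliary neurotrophic factor that joins Lifr and Il6st, had a mean of 29.5 TPM in mCtx, 42.9 in mNPC and 1.83 in mESC. It was higher by 3.73 in mCtx and 4.22 in mNPC over mESC, the largest called change of that list.

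Of 9 other JAK and STAT genes, 1 was higher and 8 lower in mCtx, and 2 higher and 6 lower in mNPC. Jak2, a kinase of the same family as Jak1, was the one higher in both, with 8.97 TPM in mCtx, 22.4 in mNPC and 1.78 in mESC (log2 fold changes 2.45 and 3.62). Stat2 fell by 1.55 in mCtx and by 1.39 in mNPC, and Stat5a had 0.0667 TPM in mCtx, 1.52 in mNPC and 4.16 in mESC. Of 6 genes of the SHP2 branch, which links gp130 to the MAP kinase cascade, 1 was higher and 2 lower in each. Gab1, a docking protein of that branch, had 5.12 TPM in mCtx, 61.4 in mNPC and 173 in mESC (log2 fold changes -4.94 and -1.52), while the adaptor Grb2 was at 0.69 in mCtx and -0.59 in mNPC, not called. Of 14 other inhibitors, 4 were higher and 4 lower in mCtx, and 2 higher and 6 lower in mNPC. Pias4, a SUMO ligase, was lower in both (-1.92 and -1.41), Pias2 was not called (-0.74 and -0.42), and Ptpn6, the phosphatase SHP1, fell most, with 0.350 TPM in mCtx, 0.647 in mNPC and 27.2 in mESC.

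Of 10 further STAT3 targets, 9 were lower and none higher in mCtx, and likewise 9 and none in mNPC. Mcl1, a survival factor, had 54.2 TPM in mCtx, 57.9 in mNPC and 192 in mESC, and Pim3, a kinase, had 17.4 TPM in mCtx, 11.8 in mNPC and 123 in mESC. Of 12 other pluripotency factors, 12 were lower in mCtx and 11 in mNPC, the exception being Sox2. Pou5f1, the gene of OCT4, averaged 1363 TPM in mESC and Zfp42 826 TPM, and both had 0 counts in mCtx and mNPC cytoplasm. Bcl3, a nuclear cofactor of NF-kappaB, had 0.100 TPM in mCtx, 0.557 in mNPC and 55.6 in mESC.

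Across the 9 group means of log2 CPM, among the 13436 genes that averaged 5 CPM or more in some group, the patterns most like those of the 9 genes were as follows, as a description over points that share libraries. For Lifr the nearest were Tmtc3 (Pearson r 0.985) and Lrp6 (0.968), and for Il6st Ermp1 (0.976) and Erbb2 (0.970). For Jak1 they were Wdr6 (0.942) and Rnf19a (0.936), and for Stat3 Kyat3 (0.995) and Vwa5a (0.990). Socs3 was nearest to Gna15 (0.997) and Was (0.995), and Tfcp2l1 to Esrrb and Arhgap30 (0.997 each). Klf4 was nearest to Nup62cl (0.996) and Pctp (0.994), Klf5 to Aldh3a1 (0.993) and Ccdc8 (0.992), and Tbx3 to Krt19 (1.00) and Mageb16 (0.999). On log2(TPM + 1), Erbb2, Wdr6 and Rnf19a alone were again among the nearest 2. Within the 9 genes, r was 0.808 between Lifr and Il6st, 0.979 between Socs3 and Tfcp2l1, 0.940 between Socs3 and Klf5, 0.647 between Klf4 and Klf5, and 0.129 between Stat3 and Socs3.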

How the data were processed

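The read counts per gene of the nucleoplasm and cytoplasm libraries, and the TPM per gene of all libraries, were deposited by the authors, per the file headers. The 9 chromatin columns hold whole-number values of the same kind, deposited with no stated unit of their own (recorded as other), and were analysed as counts. Per the submitters' processing notes, STAR, featureCounts, kallisto 0.43.0 and mm10 were used, while neither the counting options nor the strand setting nor the transcript set is given. Lengths in the count table run from the gene start to the gene end listed there for all 37332 genes, introns included. GENCODE M21 gave symbols to 35449 of the 37332 genes with counts and to 53274 of the 53379 with TPM. Gene coordinates were taken from that table (mm10).

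Contrasts were tested in edgeR 4.0.16 (R 4.3.3) with filterByExpr on the 9 groups, TMM scaling, a single quasi-likelihood fit of 27 libraries with a mean per group, and 18 contrasts (9 between cell types within a fraction, 6 between fractions, 3 differences of the chromatin-to-cytoplasm change). Within each contrast the Benjamini-Hochberg adjustment ran over every tested gene. The SE of a log2 fold change is its size over the root of F. The labels call the replicates biological. The procedure was tested on simulated counts. Alternatives tried: library totals, RLE size factors, other filters, DESeq2 1.42.0, smaller fits, a replicate block, no minimum fold, no mitochondrial genes, and limma 3.58.1 on log2 TPM with pseudocounts of 1 and 0.1.

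Same-numbered fractions deviated together in mESC (r 0.448 to 0.818 for every pair of libraries) and between chromatin and cytoplasm of mCtx (0.322 to 0.486), so numbers were taken to pair these. The main fit does not use this pairing, so the SE of its fraction contrasts includes the spread between cultures. The replicate block is the alternative that uses it. Other pairs of fractions ranged from -0.380 to 0.581, and same-numbered libraries of different cell types from -0.390 to 0.198. Named genes are the 9 genes, the 2 genes nearest to each in pattern, and of each pathway list the 2 with the highest mean TPM and the largest called change in cytoplasm; 1 gene that this rule names is not reported here. The genes and lists were chosen with earlier results of these data known. The promoter windows come from RefSeq.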

Additional observations from a re-analysis of the deposited data

Results flagged for a closer look

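For the chromatin-to-cytoplasm log2 change, 2 of the 9 genes were called higher and 2 lower in mCtx minus mESC. In mNPC minus mESC 3 were higher and 2 lower, and in mCtx minus mNPC none was higher and 1 lower. The test was edgeR's test of the difference itself, with Benjamini-Hochberg adjustment. Of all 18226 genes tested, 15.7% were called higher and 24.9% lower in mCtx minus mESC. The shares were 10.3% and 17.7% in mNPC minus mESC and 7.68% and 11.4% in mCtx minus mNPC. In mCtx minus mESC the differences were 1.35 for Socs3 (SE 0.30, adjusted p = 0.000387), -2.79 for Il6st (SE 0.20, adjusted p = 1.52e-11), -1.85 for Lifr (SE 0.24, adjusted p = 3.21e-07) and 1.66 for Jak1 (SE 0.18, adjusted p = 1.55e-08). In mNPC minus mESC they were 1.43 for Socs3 (SE 0.30, adjusted p = 0.000423), -1.31 for Il6st (SE 0.19, adjusted p = 4.95e-06), 1.29 for Klf5 (SE 0.51, adjusted p = 0.0450), -1.50 for Lifr (SE 0.24, adjusted p = 1.24e-05) and 1.35 for Jak1 (SE 0.18, adjusted p = 8.38e-07). In mCtx minus mNPC the difference was -1.48 for Il6st (SE 0.20, adjusted p = 2.26e-06). The Klf5 call ended with library totals, no filter, a filter of 1 CPM in 3 libraries, only the libraries compared or no mitochondrial genes, at 1.08 to 1.24, and without any 1 of 7 libraries. On log2(TPM + 1) the calls of Lifr and Il6st in mNPC minus mESC ended, at -0.996 and -0.966.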

How the results depend on the processing

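For the 9 genes, 152 log2 fold changes were recomputed under the alternatives, which gave 2966 values. Of these, 2803 kept the side of the threshold, 76 lost the call, 81 gained it and 6 reversed. A value counts as reversed where its sign changed and the main or the alternative value was called. Sign changes with neither value called are among the 2803. An example is Lifr in nucleoplasm of mNPC over mESC, at 0.37 without the 3 mESC libraries numbered 1, beside -0.05. The reversed values are Stat3 in chromatin over cytoplasm. In mCtx it was 1.27 on log2(TPM + 1), with or without the TPM filter, and 1.36 on log2(TPM + 0.1), beside -0.19. In mNPC it was 1.48 on all 3, beside -0.47. The cause was not tested.

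Of the 9 genes, the number called moved as follows. With library totals it was 1 in chromatin over cytoplasm of mCtx, and in nucleoplasm over cytoplasm 5 in mNPC and 2 in mESC. With no minimum fold it was 4 in mCtx and 5 in mNPC in chromatin over cytoplasm, and 6 in mCtx, 5 in mNPC and 8 in mESC in nucleoplasm over cytoplasm. In chromatin over cytoplasm of mNPC it was 2 with no filter, at least 1 CPM in 3 libraries, only the libraries compared or no mitochondrial genes, and 4 on each TPM scale, beside 1. In that of mESC it was 2 on log2(TPM + 1), filtered or not, and 3 on log2(TPM + 0.1), beside 6. In nucleoplasm over cytoplasm it was 1 in mCtx on log2(TPM + 1), filtered or not, and 4 in mNPC on log2(TPM + 0.1). For mNPC minus mESC it was 3 on log2(TPM + 1), filtered or not. Leaving out 1 library gave 1 to 2 in chromatin over cytoplasm of mNPC and 1 to 4 in nucleoplasm over cytoplasm of mCtx. With the replicate block, Stat3 in chromatin over cytoplasm of mESC was -1.002 and Lifr in mCtx over mNPC chromatin -1.002, both then called, and it changed no other call of the 9 genes.

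Of all genes, no minimum fold gave 8523 calls in mCtx, 8966 in mNPC and 11521 in mESC in nucleoplasm over cytoplasm, and 5830 for mCtx minus mNPC. For that difference log2(TPM + 1) gave 5357 and, filtered, 5417. On log2(TPM + 0.1), where more genes were tested, the calls were 17084 in mCtx over mESC and 12410 in mCtx over mNPC chromatin. In chromatin over cytoplasm they were 16596 in mCtx, 17912 in mNPC and 19534 in mESC, and for the differences 12379 in mCtx minus mESC, 8589 in mNPC minus mESC and 6432 in mCtx minus mNPC. The main calls were 3878, 4553 and 6652 in nucleoplasm over cytoplasm of mCtx, mNPC and mESC, and 3472 for mCtx minus mNPC.

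Depth limits Tbx3 in mCtx and mNPC, at 1 to 5 counts per group, and Klf5 and Tfcp2l1 in mNPC, under 1 CPM in each library.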
